A study of Mus musculus with 20 samples.

Results

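The cytosolic ribosomal protein genes were described in single CD45+ cells, stained for CD45 and CD11b and sorted from mouse eyes. They were chosen by name alone, as all symbols that begin with Rpl or Rps followed by a digit, plus Rplp0, Rplp1, Rplp2 and Rpsa. Names with -ps, names of the S6 kinases and read-through names were left out. Of 25392 gene names in the library tables, 81 matched: 40 proteins of the large subunit, 29 of the small subunit, the 3 stalk proteins, 8 paralogs, meaning close copies with their own name, and Rps19bp1, which binds a ribosomal protein and is not one. The authors' count table of the retina held transcripts of 80 members among 19990 genes, and their table of the unlesioned eye compartments held all 81 among 19705.

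All cells came from C57BL/6 mice aged 8 weeks, about 6 mice over 3 independent experiments. The groups were untreated retina, retina 3 days or 7 days after a laser lesion (the choroidal neovascularization, or CNV, mice), untreated cornea and untreated ciliary body. Each group had 4 mCEL-Seq2 libraries of 192 wells, 1 sorted cell a well. In mCEL-Seq2 the 3′ end of an mRNA is read with a molecular barcode, so a level is a number of transcripts whatever the length of the gene. The 4 libraries of a group fall into pairs by the prefix of their names, P1 to P5. What a prefix stands for is not given, so the spread between pairs may be technical. Cells of a class in a pair were summed, and the pair was the replicate (n = 2 a group).

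The ribosome is built from a small subunit, which decodes the mRNA, and a large subunit, which joins the amino acids. Most of their proteins are held in equal numbers in the particle. Their mRNAs are among the most abundant in growing cells, and most begin with a pyrimidine run, the terminal oligopyrimidine tract, through which the mTOR pathway sets their translation. Microglia are the resident macrophages of the retina, and lymphocytes and dendritic cells (DCs) enter it after injury.

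The bases around the annotated start of a member were searched for short pyrimidine runs. The window took in bases on both sides of the start. A run there, or none, therefore does not show whether the mRNA begins with the tract. RefSeq promoters of build GRCm38.p6 were matched by symbol for 61 of the 81 members, with 73 promoters in all. Shown 5′ to 3′ on the gene's own strand are the 20 bases before the annotated start and the first 10 from it. They were chosen because Rps9 had the highest mean level, Rps15a was among the up to 5 largest called changes each way in 4 comparisons below, and Rpsa was among them in 5. Capitals mark, only within 10 bases of the start, any of the 3 runs searched, CTTTC or CTTCC or TCTTT, on the gene's own strand only, where runs may overlap.
Rps9 at chr7:3704021-3704050, plus strand: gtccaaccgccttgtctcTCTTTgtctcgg
Rps15a at chr7:118116138-118116167, minus strand: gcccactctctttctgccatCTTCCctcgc
Rpsa at chr9:120127746-120127775, plus strand: tggctgtgggttatttaaggacgtcatttc
Within 10 bases of the start, 20 of 73 member promoters (27.4%) held at least 1 of these runs, against 7.93% of 32851 promoters of all genes. The annotated start itself was a C in 28.8% of member promoters and 16.3% of all promoters. Both Rps9 and Rps15a held a run in that window. Rpsa held none there. Runs further from the start, as in the Rps15a stretch, are left in lower case.

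Levels of single members spanned a wide range. Over the 22 sums of a class in a pair, mean levels reached 2646 CPM (transcripts in a total scaled to 1000000) for Rps9, 2426 for Rps23 and 2273 for Rpl23. The first 24 members by level held 51% of all member transcripts. At the other end, Rpl10l, Rpl3l and Rpl39l, paralogs known for restricted expression in testis or muscle, had means of 0.221, 0.216 and 1.60 CPM.

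A few core members were low beside an entry of like name. Rpl10 had 171 transcripts in the retina table, against 2680 for the entry Rpl10-ps3. Rpl23a had 562 against 3488 for Rpl23a-ps3, Rpl27 had 71 against 1508 for Rpl27-ps3, and Rpl9 had 88 against 2494 for Rpl9-ps6. How reads shared by such near-identical copies were counted is not given, so the levels of Rpl10, Rpl23a, Rpl27, Rpl9 and Rps12 are uncertain. So are those of Rps18, Rps26 and Rpl36, whose -ps entries held 1112, 1916 and 479 transcripts beside their own 1315, 2250 and 686. Rpl13, Rpl13a and Rpl21 are uncertain too, with -ps entries of 1369, 549 and 900 transcripts beside their own 3176, 3232 and 3516. How reads shared with a paralog were counted is not given either, as for Rpl6 and Rpl6l, with mean levels of 722 and 594 CPM. This limit holds wherever these members are named below.

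**Figure D1:**
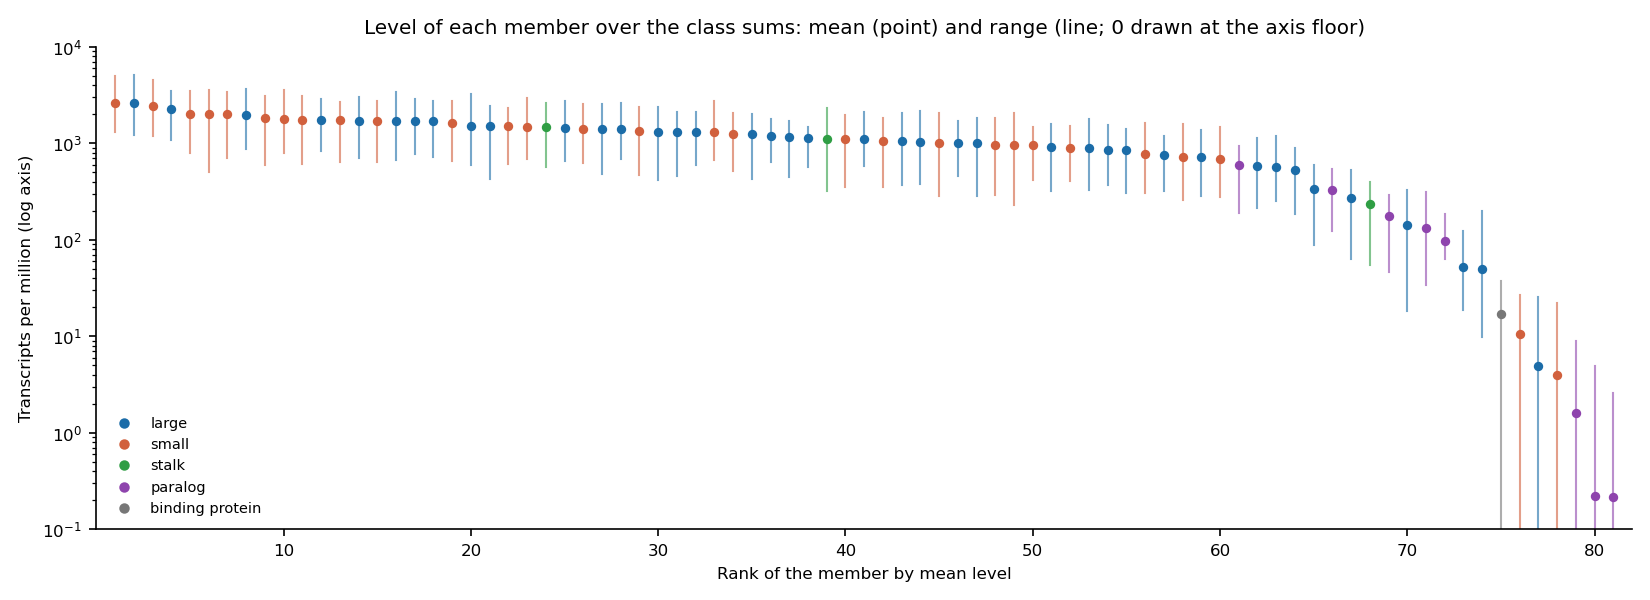
Mean level (point) and range (line) of each of the 81 members over the 22 sums, in CPM on a log axis, in order of mean level and coloured by subunit or kind. Rps9 lies highest at 2646, and Rpl3l and Rpl10l lie lowest at 0.216 and 0.221, below Rpl27 at 49.4.

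The summed share of the members was lowest in microglia of the untreated retina, at 4.14% of all transcripts in pair P1 and 3.86% in pair P2. Microglia held 7.05% and 7.02% at day 3, and 6.21% and 6.77% at day 7. At both days the pairs lay above both untreated pairs.

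Day 3 DCs of the lasered retina held 11.6% and 11.3%, and day 7 DCs 13.5% and 14.8%. Monocytes, lymphocytes and granulocytes share a joint class in the authors' annotation, in which the values were 10.2% and 8.78% for day 3, then 10.9% and 12.9% for day 7. Every DC and joint-class pair lay above every microglia pair of the retina table.

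Among unlesioned compartments, macrophages of the ciliary body held 12.1% in P3 and 9.27% in P4, and those of the cornea 8.19% in P2 and 6.97% in P5. The joint class of the ciliary body held 9.11% and 9.24%. Microglia of the untreated retina in that table, 111 of whose wells are also in the retina table, held 4.28% and 4.26%. These shares are described without a test, since they are sums over chosen genes.

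**Figure D2:**
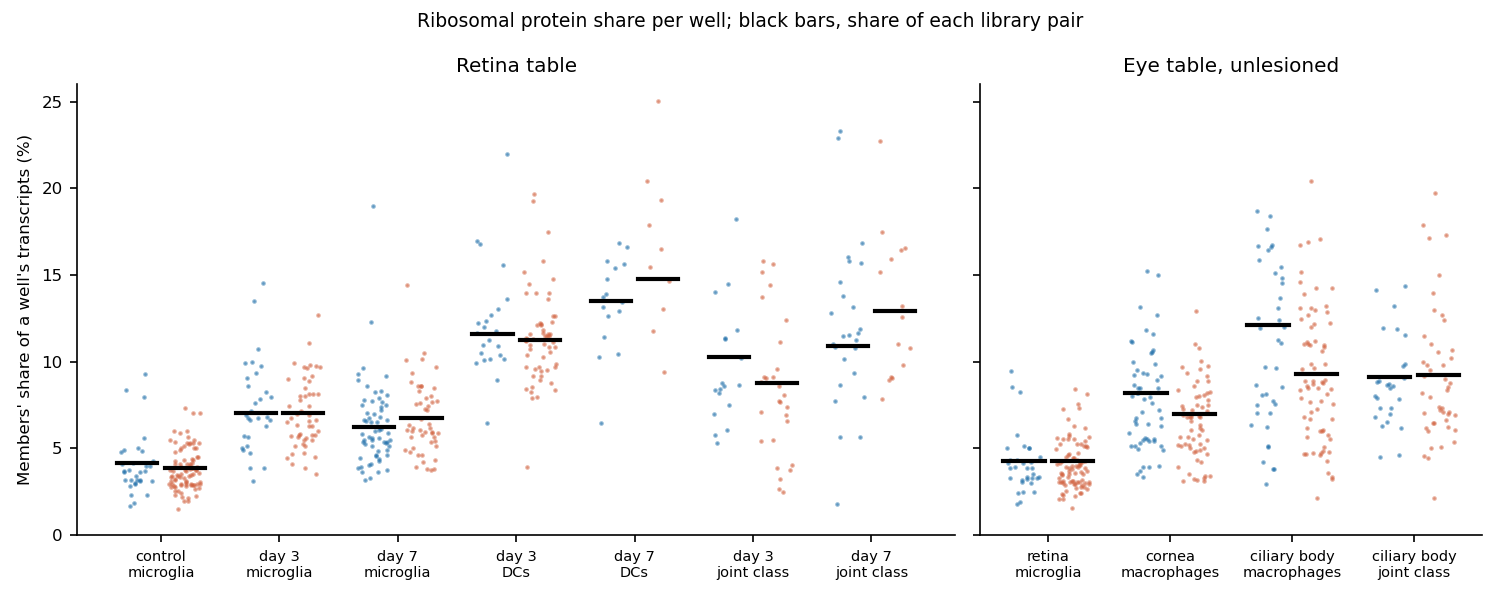
Share of each well's transcripts held by the members (points, blue and orange for the 2 library pairs) and share of each summed pair (black bars), by class and group. Untreated microglia lie lowest, at 4.14% and 3.86%, and day 7 DCs highest, at 13.5% and 14.8%.

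Single wells varied within each class. The median share over 120 untreated microglia wells was 3.66%, with a highest value of 9.28%. Over 81 wells at day 3 the median was 6.76%, from 3.13% to 14.6%, and over the day 7 wells it was 6.05%, from 3.17% to 19.0%. Of the day 3 wells 62 (76.5%), and of the day 7 wells 74 (65.5%), lay above 5.50%, the 90th percentile of untreated wells.

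The wells differed in depth. A library held between 371329 and 3325825 transcripts, and the median annotated well held 1892 and 1531 in the untreated microglia pairs, 2739.98 and 2742 at day 3, and 2230.15 and 2173 at day 7, against 3987 to 7855 in DCs. Within wells of 1000 to under 3000 transcripts the share was 3.80% and 3.84% in untreated microglia, 8.34% and 7.08% at day 3, and 6.19% and 6.62% at day 7, and the differences from untreated were no smaller than over all wells. The authors' tables also leave out some genes of the library tables, none of them members. Those genes held 56.9% and 51.8% of the transcripts of untreated microglia, 30.04% and 32.4% at day 3, and 44.3% and 47.4% at day 7. With them in the total the share was 1.79% and 1.86% in untreated microglia, 4.93% and 4.75% in day 3 microglia, and 3.46% and 3.56% in day 7 microglia.

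Marker genes matched the label for microglia and DCs and less clearly for the other classes. All 8 microglia markers were present in every microglia sum, at a summed 15146 to 28356 CPM, lowest in the day 3 pairs (15146 and 17984). Photoreceptor markers in the microglia sums came to 1708 to 8296 CPM, also lowest at day 3. Cornea macrophage sums held 18288 and 25224 CPM of corneal epithelium markers, and their DC markers came to 28628 and 30419 CPM. Ciliary body macrophage sums held 45709 and 36107 CPM of DC markers (8 of 8 present), as high as the 36828 to 46063 of the DC sums. The DC list includes the MHC class II genes H2-Aa and Cd74, and its sum was not split by gene. The sum alone therefore does not show that RNA of DCs was present. In the cornea sums Ccr7 was at 0 in both pairs and Zbtb46 in P2. Macrophage markers came to 2342 and 1791 CPM in the ciliary body macrophage sums (8 and 7 of 8 present). In those of the cornea they came to 2891 and 1895 (6 and 7 of 8). Untreated microglia held 2711 and 3003 CPM, from C1qa alone of the 8 in P1 and from 3 of 8 in P2. Mrc1, Lyve1 and Cd163 were at 0 in both microglia pairs. Lyve1 was also at 0 in both cornea pairs and in ciliary body pair P4. In the joint class at day 3, pair P1 held 15574 CPM of DC markers against 2490 of monocyte and 247 of lymphocyte markers. How far RNA of other cells entered the member shares was not tested.

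At day 3 after the lesion, ribosomal protein transcripts of microglia were higher across both subunits. By edgeR's quasi-likelihood test with Benjamini-Hochberg adjustment over all genes, 60 of 72 tested members rose at an adjusted p under 0.05 and none fell, where 11.9% of 3408 genes rose and 10.5% fell. The median change was 0.87 on the log2 scale, against 0.03 over all genes. By subunit, 30 of 37 large-subunit members and 24 of 27 small-subunit members rose, with medians of 0.86 and 0.84. The scaling of the fits raised every log2 change over that of the plain CPM by 0.11 here, 0.07 at day 7, 0.13 for DCs against microglia, 0.35 for cornea and 0.40 for ciliary body, and moved those of the joint class by -0.09. Between day 7 and day 3 the shift was 0.10 in DCs, -0.04 in the joint class and -0.04 in microglia. For cornea against ciliary body it was -0.05. Changes are given relative to the scaling.

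Rpsa, the laminin receptor protein of the small subunit, stood at 797 and 509.8 CPM in the untreated pairs and at 1737 and 1784 at day 3. Rps15, which lies near the decoding site, stood at 291 and 319 against 923 and 926. The pairs of the 2 groups lay far apart for both genes, with changes of 1.51 ± 0.22 (SE, adjusted p = 6.24e-05) for Rpsa and 1.61 ± 0.24 (adjusted p = 6.24e-05) for Rps15 by edgeR.

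Rpl36, a small protein of the large subunit whose level is uncertain as given above, rose from 107 and 88.4 CPM to 338 and 284, by 1.71 ± 0.36. Rps27a, which is made as a fusion with ubiquitin, rose from 659 and 789 CPM to 1425 and 1628, by 1.09 ± 0.20. For both members too, the lower day 3 pair was above the higher untreated pair.

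The rise was not uniform. Rps21 stood at 827 and 775 CPM untreated and 831 and 802 at day 3 (0.06 ± 0.21). Rps9 stood at 1409.8 and 1319 against 1599.8 and 1923 (0.41 ± 0.19, adjusted p = 0.122 by edgeR), and Rps29 at 873 and 849.7 against 1133 and 1078 (0.39 ± 0.20, adjusted p = 0.158). None of the 3 passed the test, although for Rps9 and Rps29 the pairs did not overlap. Of the 72 tested members, 66 had both day 3 pairs above both untreated pairs, as did 31.5% of all genes tested. In 1 member, Rpl10, both day 3 pairs (18.3 and 55.0 CPM) lay below both untreated pairs (91.9 and 129), as in 31.4% of all genes. Rpl10 was not called, and its -ps entry held more transcripts.

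The 3 stalk proteins, which form the flexible arm that recruits elongation factors, differed. Rplp0, the base of the stalk, stood at 322 and 360.2 CPM untreated and 923 and 894 at day 3, a rise of 1.42 ± 0.24 (adjusted p = 0.000232 by edgeR). Rplp2 stood at 153 and 54.4 against 292 and 188, a rise of 1.41 ± 0.44 on few transcripts. Rplp1, which pairs with Rplp2 in the stalk, stood at 1149 and 843 against 1233 and 977 (0.20 ± 0.21, adjusted p = 0.535 by edgeR), with overlapping pairs. The difference between the stalk members was not tested.

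Paralogs were also unequal. Rps27l, a paralog of Rps27 known as a target of p53, had 76.6 and 40.8 CPM untreated and 237 and 165 at day 3, a rise of 1.90 ± 0.50 that was the largest of the tested members. Rpl22l1, the paralog of Rpl22, had 45.9 and 95.2 against 274 and 215, a rise of 1.64 ± 0.42. Rpl22 itself had 490.2 and 319 against 630.2 and 586 (0.67 ± 0.26, adjusted p = 0.061 by edgeR). Rpl36al and Rpl6l rose by 1.02 ± 0.33 and 1.39 ± 0.29, and Rpl7l1, a paralog of Rpl7, stood at 91.9 and 102 against 100.4 and 96.2 CPM (0.02 ± 0.49).

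**Figure D3:**
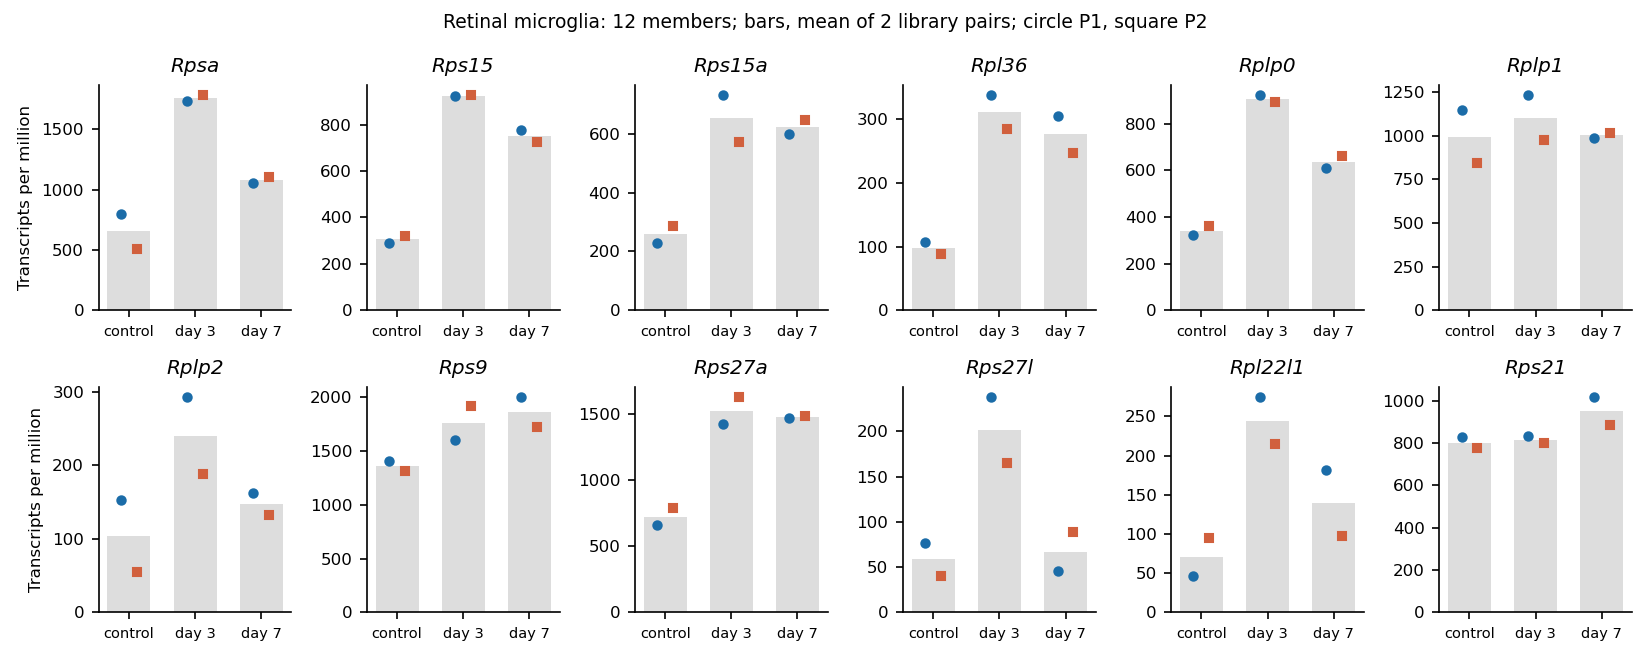
Level of 12 members in retinal microglia (CPM) in the untreated, day 3 and day 7 pairs (circle, pair P1, and square, pair P2, over bars of their mean). Rpsa, Rps15, Rplp0, Rplp2, Rps27l and Rpl22l1 are highest at day 3. Rps15, Rps15a, Rps27a and Rpl36 are among those above their untreated pairs at both days. The pairs of Rplp1 at both days, and of Rps21 at day 3, overlap the untreated ones.

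Other genes of translation changed beside the members. Gnb2l1, the scaffold protein RACK1 of the small subunit, rose by 1.30 ± 0.23. Of 6 tested elongation factors 5 rose, among them Eif5a (224 to 803 CPM, 1.80) and Eef1g (182 to 574 CPM, 1.77). Of 9 other mRNAs known to carry the pyrimidine tract 7 rose, Pabpc1, the poly(A)-binding protein, by 1.42. The lists overlap here and below, since Eef1a1, Eef2, Pabpc1, Npm1, Naca and Btf3 of these 9 are also counted in another list. With each gene counted once, edgeR called 23 of 81 over all lists. Initiation factors rose in 6 of 26, and genes of nascent chain handling in 5 of 13, among them Sec61b of the translocon (76 to 258 CPM). DESeq2 called 4 of the elongation factors, 4 of the mRNAs with the tract, 1 initiation factor and none of the nascent chain genes, of which edgeR had called 5.

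Of 12 tested ribosome assembly genes 2 rose and 1 fell. Ncl (nucleolin) rose from 94 to 597 CPM, Npm1 (nucleophosmin) rose from 235 to 679, and Wdr12 fell by 1.19. Of 5 tested genes of growth signalling 1 rose, Eif4ebp1, the mTOR-regulated repressor of initiation (14 to 98 CPM), which DESeq2 did not call. None of 15 tested mitochondrial ribosomal proteins was called by edgeR or by DESeq2, with 3 at an unadjusted p under 0.05 in edgeR, and their median was 0.55.

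The count of members depended on the method and on a pair. DESeq2 called 25 members at day 3, and without the untreated pair P2 edgeR called 39.

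At day 7 fewer members passed the test. Against the same untreated pairs, 20 of 72 rose and none fell by edgeR, where 1.38% of genes rose and 0.44% fell. The median change was 0.78, against 0.01 over all genes, and 71 of 72 estimates were above 0, but the count rested on the setting and on single pairs. DESeq2 called 3. Without the day 7 pair P2 edgeR called 5, without the day 7 pair P1 13, and without the untreated pair P1 36. Since both days share the untreated pairs, their changes are set side by side and not compared with each other through them.

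All 20 were core members, 10 of each subunit. Rps15 stood at 774 and 726 CPM against 291 and 319 untreated (1.31 ± 0.24, adjusted p = 0.00537 by edgeR). Rps15a stood at 599 and 646 against 229.8 and 285 (1.26 ± 0.27). Rpl36, Rpl36a and Rps7 rose by 1.58 ± 0.37, 1.29 ± 0.29 and 1.21 ± 0.28, and Rps27a by 1.04 ± 0.20. For each of them both day 7 pairs lay above both untreated pairs.

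Rps27l stood at 45.5 and 88.5 CPM, overlapping the untreated 76.6 and 40.8. Rplp1 stood at 989 and 1018, between its untreated pairs. In the lists of other translation genes none of 81 tested genes was called by edgeR or DESeq2 at day 7 against untreated, with 13 at an unadjusted p under 0.05 by edgeR and 5 by DESeq2.

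Between day 7 and day 3 the members differed little. Of 72, 2 fell, where 4.96% of all genes fell and 4.49% rose, and the median was -0.12 against 0.03 over all genes. Rps27l fell from 237 and 165 CPM to 45.5 and 88.5 (-1.58 ± 0.45, adjusted p = 0.0284 by edgeR), and Rpsa fell from 1737 and 1784 to 1054 and 1106 (-0.70 ± 0.20, adjusted p = 0.0318). DESeq2 called neither, and leaving out 1 pair left 0 or 1 call.

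Outside the members, Eif5a fell by 1.73, Eif4a1, the helicase of cap-dependent initiation, by 1.51, and Sec61b by 1.76. Npm1 fell by 0.97 and Ncl by 1.38. In all, 13 of the 81 tested translation genes fell and 1, Wdr12, rose by edgeR, and DESeq2 called 2.

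In the lasered retina DCs held more ribosomal protein transcripts than microglia of the same library pairs, at both days. The authors drew these classes from the same counts, so calls here describe the classes and test nothing beyond them. With the pair as a block, 67 of 73 members were called higher in DCs and none lower, where 16% of 3586 genes were called higher and 15.4% lower. The median difference was 0.95 (all genes -0.07), and 65 members had all 4 DC pairs above all 4 microglia pairs, as did 13% of all genes.

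All 27 tested small-subunit members were called higher in DCs, with differences from 0.69 to 1.34. Rpsa stood at 3149.9 and 3229 CPM in the day 3 DC pairs and 3554 and 3303 at day 7, against 1054 to 1784 in microglia (1.32 ± 0.13). Rps9, not called in microglia at either day, stood at 3478 and 3809.9, then 5018 and 4540.0, against 1599.8 to 1999 (1.26 ± 0.14). Rps18, a head protein of the small subunit whose level is uncertain as given above, differed by 1.34 ± 0.18, and Rps15a by 1.30 ± 0.14.

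In the large subunit Rpl17 stood at 2764 and 2448 CPM in DCs at day 3 and 3611 and 3633 at day 7, against 1188 to 1372 in microglia (1.34 ± 0.13). Rpl39, a small protein of the exit tunnel, differed by 1.28 ± 0.15. Rpl3, near the catalytic center, had 1178 and 1403, then 1354 and 901 CPM, against 832 to 1100.3 (0.36 ± 0.16) and was not called. The estimate for Rpl23a, 1.46 ± 0.23, rests on a gene whose -ps entry held more transcripts.

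The stalk members were all called higher in DCs, Rplp0 by 1.18 ± 0.15, Rplp2 by 0.83 ± 0.25 and Rplp1 by 0.81 ± 0.14. Paralogs were again unequal, with 2 of 5 tested called higher and estimates up to 1.08. Rps27l had 110.0 to 166 CPM in DC pairs and 45.5 to 237 in microglia pairs (0.23 ± 0.35), and Rpl22l1 had 176 to 294 against 97.3 to 274 (0.27 ± 0.27). Rpl7l1 differed by -0.27 ± 0.34. These 3 paralogs, Rpl3, Rpl10a and Rpl27 were the 6 members not called.

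The joint class also stood above microglia. There 49 of 73 members were called higher and none lower, where 14.3% of genes were called higher and 14.9% lower, with a median of 0.56 (all genes 0.01). With plain totals the medians were 0.82 for DCs and 0.65 for the joint class. Rps15a differed by 0.93 ± 0.15, Rpl13a, a protein known to be released from the ribosome under interferon, by 0.92 ± 0.14, Rpsa by 0.90 ± 0.13 and Rpl36al by 0.89 ± 0.22. Rpl13a stood at 1845 and 1984 CPM at day 3 and 2552 and 3246 at day 7, against 894 to 1427 in microglia, with no overlap. Rpl10a, Rpl36a and Rpl14 differed by 0.03, 0.09 and 0.18 and were not called.

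Wells of the joint class were not alike. By the authors' second call from signatures, 15 wells named lymphocytes at day 3 held 12.04% and 10.9% in the 2 pairs, and 32 at day 7 held 12.5% and 12.6%. The 11 wells named monocytes at day 3 held 8.03% and 8.39%, and 2 wells named granulocytes held 3.24%. At day 7 only 2 wells were named monocytes, and they held 6.63%. The class had 46 wells at day 3 and 41 at day 7. The summed lymphocyte markers of the joint class came to 247 and 919 CPM at day 3 and 2901 and 3756 at day 7.

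Between the days, DCs and the joint class had higher member shares at day 7. Single members did not pass the test in edgeR or DESeq2. In DCs 24 of 73 members had an unadjusted p under 0.05 by edgeR and 10 by DESeq2, with a median of 0.37 (all genes -0.04), where 0.112% of genes were called higher and 0.0558% lower. In the joint class 13 did by edgeR and 9 by DESeq2, with a median of 0.30 (all genes -0.04), where 0.669% of genes were called higher and 1.09% lower. These shares of genes are at an adjusted p under 0.05, so they are no background for the counts of members at an unadjusted p. The share of all genes at that unadjusted p is not given here. The estimates were above 0 for 64 and 67 of the 73 members.

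Rps28 had 922 and 802 CPM in DCs at day 3 and 1641 and 1517 at day 7 (0.96 ± 0.24, adjusted p = 0.155 by edgeR). Rplp1, not called in microglia at either day, had 1498 and 1334 in DCs at day 3 and 2105 and 2332 at day 7 (0.72 ± 0.23, adjusted p = 0.308 by edgeR). The day 7 DC sums held 16 and 10 wells. A test of the difference itself, the class-by-day term, called no member for DCs (12 at an unadjusted p under 0.05 by edgeR, 4 by DESeq2) or for the joint class (13 and 4), where 0.335% and 2.9% of genes were called. Here too the shares of genes are at an adjusted p under 0.05 and not at the unadjusted one. Without the day 7 pair P2, 1 member was called for the joint class.

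Beside the members, Gnb2l1 was higher in DCs by 1.03 ± 0.14 and in the joint class by 0.62 ± 0.14. Tpt1, an abundant mRNA with the pyrimidine tract, stood at 5800 CPM in DCs and 5384 in the joint class against 2440 in microglia. In DCs 8 of the 9 mRNAs of that list were called higher, 4 of 6 elongation factors, 7 of 26 initiation factors and 2 of 17 mitochondrial ribosomal proteins. In the joint class the counts were 5, 4, 6 and 0. By DESeq2 they were 5, 2, 5 and 1 in DCs and 1, 0, 2 and 0 in the joint class. For those 17 mitochondrial genes DESeq2 also called none there, and 1 had an unadjusted p under 0.05 by edgeR.

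In the untreated eye, macrophages of the ciliary body and the cornea held more ribosomal protein transcripts than retinal microglia. Tissue and class change together here and cannot be told apart, no prefix is shared by ciliary body and microglia, and cornea and microglia share only P2. Both comparisons share the microglia pairs. In ciliary body macrophages 69 of 74 members were called higher and none lower by edgeR, where 15.4% of 4832 genes were called higher and 10.9% lower, and the median was 1.64 (all genes -0.04). In cornea macrophages 49 of 74 were called higher and none lower, where 16.4% of genes were called higher and 13.5% lower, with a median of 0.995 (all genes 0.05). With plain totals the medians were 1.24 and 0.65 (all genes -0.42 and -0.27). The DC markers of both macrophage classes, given above, were far above those of microglia (1463 and 879 CPM), and their part in these differences was not tested.

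In the ciliary body Rplp0 stood at 1793 and 1389.8 CPM, against 323 and 405 in microglia (2.38 ± 0.35). Rps7 stood at 1357 and 990.1 against 262 and 288 (2.35 ± 0.36), and Rpl32 at 2188 and 1644 against 477 and 584 (2.11 ± 0.31). The lower ciliary body pair lay well above the higher microglia pair for each. Rpl36 differed by 2.46 ± 0.39 and Rps15a by 2.29 ± 0.36, and all 27 tested small-subunit members were called higher.

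In the cornea Rpl5, which carries the 5S RNA to the large subunit, stood at 1908 and 1852 CPM against 523 and 831 (1.68 ± 0.30). Rpsa stood at 1824 and 1920.4 against 877 and 549.5 (1.65 ± 0.29). Rps20 and Rps27l differed by 1.63 ± 0.30 and 1.72 ± 0.49. Rplp1 stood at 1342 and 568, astride the microglia pairs of 1109 and 948 (0.13 ± 0.37), and in the ciliary body at 2505 and 1587 (1.28 ± 0.37).

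The cornea count rested on single pairs. Without cornea pair P2 edgeR called 26 members, and without the microglia pair P1 or P2 it called 28 or 27. The 2 cornea pairs stood apart for several members, as for Rplp0 (1038 and 496 CPM) and Rps29 (1307 and 685), and for others such as Rpl5 they did not.

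Set against each other, cornea macrophages lay below ciliary body macrophages for most members, with a median of -0.65 (all genes -0.01) and 69 of 74 estimates below 0. Of these 4 were called lower, where 0.828% of genes were called lower and 1.82% higher. Rpl36 stood at 194 and 185 CPM in the cornea and 601 and 363 in the ciliary body (-1.39 ± 0.34), Rps7 at 671 and 321 against 1357 and 990.1 (-1.29 ± 0.33), and Rps28 at 616 and 447 against 1457 and 886 (-1.19 ± 0.31). The fourth, Rpl10 (-1.50 ± 0.34), stood beside a -ps entry with more transcripts.

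Those 4 calls were unstable. DESeq2 called none, with edgeR at 42 members under an unadjusted p of 0.05. Leaving out cornea pair P5 or ciliary body pair P3 also left none, and leaving out ciliary body pair P4 gave 22, cornea pair P2 8. Ciliary body macrophage wells were also deeper, with medians of 7078 and 4999 transcripts against 2728 and 2718 in the cornea. Within wells of 1000 to under 3000 transcripts the shares were 7.84% and 7.37% in the ciliary body (9 and 12 wells) and 7.57% and 6.28% in the cornea, and untreated microglia held 3.96% and 4.09%.

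Among other translation genes, Gnb2l1 was called higher in both compartments, by 1.87 ± 0.29 in the ciliary body and 1.33 ± 0.29 in the cornea. Of the 9 mRNAs with the pyrimidine tract 8 were called higher in each, of 6 elongation factors 5 in each, and of 30 initiation factors 12 in each. Over all lists edgeR called 33 of 96 genes in each compartment, and DESeq2 16 in the ciliary body and 18 in the cornea. Ncl and Npm1 were higher by 1.85 and 1.68 in the ciliary body and by 1.86 and 1.29 in the cornea. Of 21 mitochondrial ribosomal proteins 1 was called higher in the ciliary body and 2 lower in the cornea. Rheb, the GTPase that turns on mTOR, was higher by 1.49 in the ciliary body and 1.89 in the cornea.

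**Figure D4:**
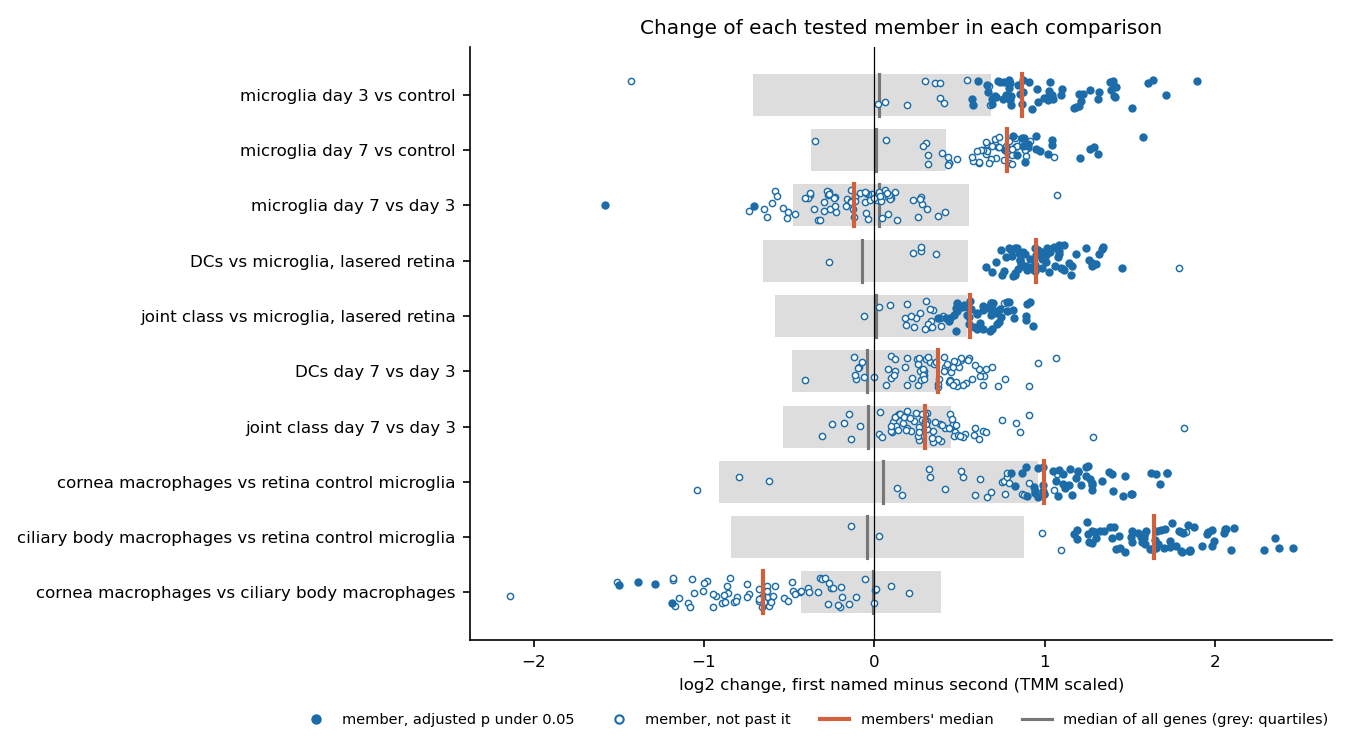
log2 change of each tested member (filled, adjusted p under 0.05) in each comparison, with the members' median (orange) and the median and quartiles of all genes tested (grey). The members' median is 0.87 and 0.78 in microglia at days 3 and 7, and 1.64 in the ciliary body, beside all-gene medians of 0.03, 0.01 and -0.04.

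The plot of the share by way of counting puts untreated microglia lowest in all 3. With all genes of the library tables in the total, day 3 microglia (4.93% and 4.75%) stood above day 7 microglia (3.46% and 3.56%) by more than in the authors' tables. In wells of 1000 to under 3000 transcripts the DC shares were higher, at 16.7% and 14.7% at day 3 and 15.5% and 19.5% at day 7, from 3 to 7 wells a pair.

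**Figure D5:**
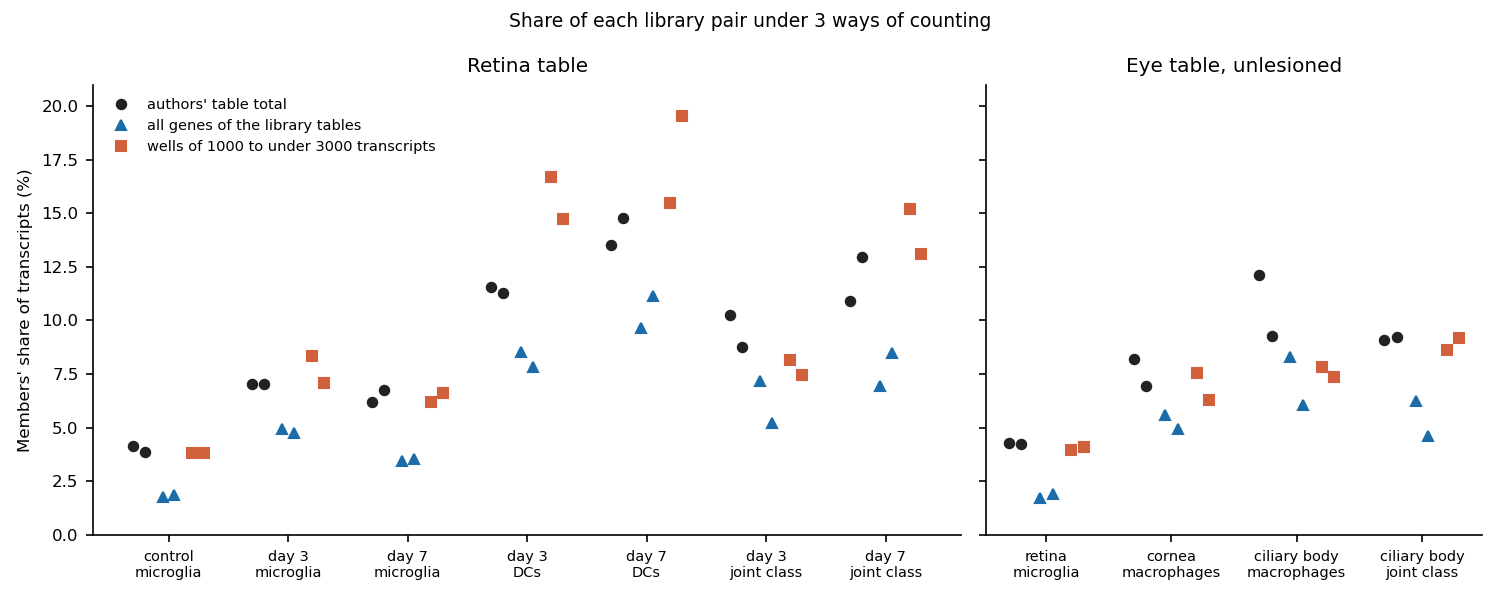
Members' share of transcripts (%) in each library pair by class, over the authors' table total (circles), over all genes of the library tables (triangles), and over the table total in wells of 1000 to under 3000 transcripts (squares). Untreated microglia lie lowest each time, from 1.79% to 4.14% in the retina table.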

How the data were processed

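The authors' deposited unnormalized tables hold, for each gene in each well, an estimated count of transcripts that need not be whole; sums were rounded. Per the submitters' processing notes, BWA 0.6.2-r126 was among the tools; no source used here gives the genome build, annotation, counting rule or strand. The per-library tables, entered as another unit, hold the same estimates for all genes.

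Wells were tied to libraries by group, prefix, well number and values, and took the authors' deposited Cell_type and tissue annotation for 829 wells, 111 of them in both tables. Doublets were not treated. Library barcodes mark plate positions and recur in every library. Counts were summed per class and library pair, where each pair had at least 10 wells, filtered with filterByExpr, scaled by TMM and tested with edgeR 4.0.16 (R 4.3.3) in 4 fits: microglia of the 3 retina groups, classes of the lasered retina with the pair as a block, class by day, and the eye table. P-values were adjusted over all genes. Levels (CPM) are transcripts scaled to a total of 1000000 over the table. DESeq2 1.42.0, other scalings, filters, depths, well sets and left-out pairs were alternatives. The procedure was tested on simulated data.

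The members and lists were chosen with earlier results of these data known. The design had assumed totals over all genes. The authors' table totals were used after shares by both totals had been seen, and the other is printed. Totals over all library genes, plain totals and wells of 1000 to under 3000 transcripts were added after seeing the data. Named members are, in each comparison, up to 5 largest called changes each way whose pairs do not overlap, the 5 of highest mean level, a fixed list with the stalk proteins and paralogs, and 3 genes a list by adjusted p. Rps21, Rps28, Rpl10a, Rpl14 and others outside it were named after their values were seen. Some members that this rule names are not reported here.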

Additional observations from a re-analysis of the deposited data

Results flagged for a closer look

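The direction of the share between day 3 and day 7 differed between classes. It was lower at day 7 in microglia, by -0.54 percentage points with both day 7 pairs below both day 3 pairs, and higher in DCs by 2.72 and in the joint class by 2.41 points, with both day 7 pairs above both day 3 pairs. The difference between these shares was not tested. Single libraries overlapped in microglia, with a day 3 library at 6.60% and a day 7 library at 6.96%. In the joint class a day 3 library held 10.66% and a day 7 library 9.83%. DC libraries did not overlap. Day 7 DC wells were shallower, with medians of 5470 and 3987 transcripts against 6701 and 7855. In wells of 1000 to under 3000 transcripts the DC pairs overlapped, at 16.7% and 14.7%, then 15.5% and 19.5%. The other classes stayed apart there. Of the joint-class wells, the authors' signature call named 15 of 46 lymphocytes at day 3 and 32 of 41 at day 7. It named 11 and 2 of them monocytes. How far this make-up entered the joint-class difference was not tested. The class-by-day term of edgeR called no single member, with 12 members at an unadjusted p under 0.05 for DCs and 13 for the joint class.

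Among the 4 day 7 DC libraries, 1 stood apart from the others, with a member share of 13.11% where the other 3 lay between 14.55% and 14.80%. It held 11 DC wells, the others 4 to 6. Chance alone sets about 1 in 20 groups of 4 libraries apart in this way.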

How the results depend on the processing

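The number of replicates, 2 pairs a group, and shallow wells limit what single low members can show. Called members at day 3 against untreated microglia numbered 60, with 25 by DESeq2, 39 to 57 with 1 pair left out, and 41 to 60 otherwise. At day 7 they numbered 20, with 3 by DESeq2, 8 with sums thinned to the smallest or with wells that both of the authors' calls name alike, 7 with all library genes in the totals, 9 with plain totals, 39 in wells of at least 1000 transcripts and at most 25% mitochondrial, 44 with sums per single library and 5 to 36 with 1 pair left out. The cause was not tested. Between the days the 2 calls became 0 by DESeq2, with thinned sums or with both calls alike, 1 with all library genes and 0 to 1 with 1 pair left out.

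The DC count stayed between 64 and 70 and the joint-class count between 34 and 58 over all alternatives. Between the days, 2 DC members were called with sums per single library, and in the joint class 8 were, 1 with both calls alike and 1 with plain totals; leaving out 1 pair gave 0 throughout. The cornea count of 49 fell to 24 with thinned sums, 27 with plain totals and 26 to 49 with 1 pair left out. The ciliary body count stayed between 61 and 71. The 4 calls between cornea and ciliary body became 19 without a filter, 0 by DESeq2 or with thinned sums, 2 in wells of at least 1000 transcripts, with all library genes or with plain totals, 8 with single libraries and 0 to 22 with 1 pair left out.

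Share differences kept their direction under every alternative run. The day 3 difference of 3.03 points was 3.30 as a mean over wells, 3.21 in wells of at least 1000 transcripts, 3.38 with -ps entries and 3.89 in wells of 1000 to under 3000 transcripts. With all library genes the day 7 difference of 2.49 was 1.69 and that between the days, -0.54, was -1.33. In wells of 1000 to under 3000 transcripts the latter was -1.31, DCs against microglia 9.54 (6.02), DCs between the days 1.80 (2.72), the joint class 6.33 (2.41), ciliary body against microglia 3.58 (6.44) and cornea against ciliary body -0.68 (-3.13). Over all genes, DESeq2 called 246 where edgeR called 766 at day 3, 26 against 62 at day 7, 66 against 322 between the days, 750 against 1445 for cornea, 659 against 1270 for ciliary body and 36 against 128 between these. For the class-by-day term of the joint class 1 member was called with scaling without the members, and 3 in wells of at least 1000 transcripts or with plain totals. Of the 79 gene changes recomputed under alternatives, none changed direction, and 53 kept their side of the threshold under all of them. These 79 leave out some members named in the text, among them small changes more open to a reversal. Such were Rps21 and Rpl7l1 in microglia at day 3, and Rplp1 in cornea macrophages. Rplp1 in microglia at day 3, also small, was included. Whether the small changes left out turn was not tested, so the lack of reversals holds for the 79 only.

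The prefix does not pair the samples by name. Deviations of same-prefix pairs correlated at -0.08, 0.02 and 0.19 in microglia, -0.02 in DCs and 0.11 in the joint class. With the prefix as a replicate block edgeR called 58, 18 and 2 members in the microglia comparisons and 0 in both day contrasts, and without the block in the class fit 66 and 46. No paired analysis was possible in the eye table because cornea and microglia share only prefix P2 and the ciliary body shares none.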

Other observations

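Some wells of the classes belong to no comparison. The untreated retina held 2 wells of the joint class, 1 in each pair, with member shares of 10.1% and 7.90%. The cornea held 5 wells of that class in pair P2 and none in P5, with a summed share of 10.4%. Among retinal wells, 18 day 7 wells that both of the authors' calls name DCs held 14.4%, against 11.4% in 40 such wells at day 3, and 99 day 7 wells that both name microglia held 6.31%, against 6.79% in 60 at day 3 and 3.93% in 118 untreated ones.

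The parts of 2 members within all member transcripts of microglia are given as values, with no test. Rplp1 made up 2.77% and 2.18% of member transcripts in the untreated pairs, 1.75% and 1.39% at day 3, and 1.59% and 1.503% at day 7. Rpsa made up 1.92% and 1.32%, then 2.46% and 2.54%, then 1.70% and 1.63%, the last within its untreated pairs.

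The share of a well's transcripts held by the members went with the share of mitochondrially encoded transcripts across wells of a class, at a Spearman rho of 0.48 over 120 untreated microglia wells, 0.36 over 81 at day 3 and 0.335 over those of day 7. Against the number of transcripts rho was 0.16, -0.10 and -0.07. The points are wells of shared libraries and the measures share a well's counts, so these are descriptions.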
